A study of Danio rerio with 48 samples.

Results

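In whole adult zebrafish exposed to cobalt for 24 h, 75 transcripts differed from the controls by at least 0.9 on the log2 scale (1.87-fold) at the high concentration and by under 0.35 (1.27-fold) at the low one. They were chosen from 21903 transcripts on the array by these measured values. A transcript had to reach a mean of 6.5 or more in at least 1 of the 12 groups, which left 9416, and of these 812 passed the limit at high cobalt and 80 also stayed under the limit at low cobalt. A further 5 were dropped because they were lower by 1.5 or more in all 3 chromium groups, 4 of them lower and 1 higher at high cobalt. Of the 75 members, 48 were higher (called risers here) and 27 lower (fallers) at high cobalt. All 75 carry Ensembl transcript IDs, each measured by 2 probes that were averaged. No ID could be paired with a gene symbol in the tables used here, so members are given by ID, without gene functions.

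Cobalt, nickel and chromium are metals that enter fish mainly across the gills and the gut. Cobalt ions stabilise the hypoxia-inducible factors by blocking the hydroxylases that mark them for degradation, and are used in the laboratory as a mimic of low oxygen. Excess metal ions in vertebrate tissue also induce metallothioneins, which bind metals, and the antioxidant and heat shock genes that deal with oxidised and misfolded proteins. Which of these genes are among the members was not analysed here.

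The study kept zebrafish of 6 to 9 months in flow-through tanks, with 24 h of exposure and 25 °C given for every group. They were exposed to nickel, chromium or cobalt at a low, a mid and a high measured concentration, or to no toxicant. Pooled RNA of whole fish was measured on 48 one-colour arrays, 4 in each group. Cobalt was at 39.7, 46.3 and 59.5 mg/L, nickel at 42.4, 51.0 and 64.0 mg/L, and chromium at 56.5, 69.9 and 80.6 mg/L. The labels used here name no salt or valence, no strain or sex, and not how many fish or tanks stand behind a pool, so the p-values rest on variation among these arrays alone, part of which may be technical. The 3 cobalt groups share 1 set of 4 controls, and the nickel and chromium controls are the same 4 pools hybridised on separate arrays, so comparisons within cobalt, and comparisons of nickel with chromium, share controls. In RNA of whole fish, fewer cells of a type and less RNA per cell cannot be told apart.

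Array medians were alike, from 5.62 to 5.66 on the deposited log2 intensity scale, and 66.2% to 68.5% of probes per array lay above log2 5. The mean of 6 control rows, read here as added control RNA, was 10.94 in the nickel controls and 10.96 in the chromium controls. These rows were picked by name and by a mean level from 6 to 15, and the sources used here do not describe their use. In the cobalt controls these 6 rows averaged lower, so levels may not compare between the cobalt arrays and the others. They were at 8.69 ± 0.09 (SD, n = 4) in the cobalt controls and 8.45 ± 0.07 at high cobalt. Scaling to them moves the median of all transcripts up by 0.25 at high cobalt, 0.05 at mid and 0.06 at low, by 0.05, 0.20 and 0.21 at low, mid and high nickel, and by 0.05, 0.07 and 0.15 in chromium. With that scaling, 110 transcripts meet the rule, 102 risers and 8 fallers, and 39 of the 75 members are among them (52.0% of the members and 35.5% of the 110). The values below are on the deposited scale.

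Several cobalt arrays stood apart in the members. Taking, for each array, the median over the risers of its difference from the control mean, the controls were at -0.07, 0.27, -0.12 and -0.08 for replicates 1 to 4. The low arrays were at 0.14, 0.21, 0.14 and 0.32, the mid arrays at 0.64, 0.72, 0.18 and 0.53, and the high arrays at 1.5, 1.28, 1.09 and 0.76. Control replicate 2 thus lay at the level of the low arrays, mid replicate 3 was the mid array nearest to control, and high replicate 4 was the high array nearest to control. By array median, the fallers mirrored this. Their medians were 0.08, -0.19, 0.07 and 0.07 in the controls, -0.09, -0.26, -0.16 and -0.29 at low, -0.55, -0.61, -0.26 and -0.52 at mid, and -1.25, -1.01, -0.99 and -0.88 at high. Among the controls, replicate 2 was the closest to the high group in 34 of 48 risers and 14 of 27 fallers. Over all 9416 level-filtered transcripts its median was -0.01. The rule used the control, low and high arrays, so the choice of members bears on where these arrays lie. These positions are a description of the members as chosen, and nothing more is read from them. The descriptions of high replicates 1 and 4 carry an extra letter after the pool number whose meaning is not given, as do those of replicate 4 in the other cobalt groups.

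**Figure D1:**
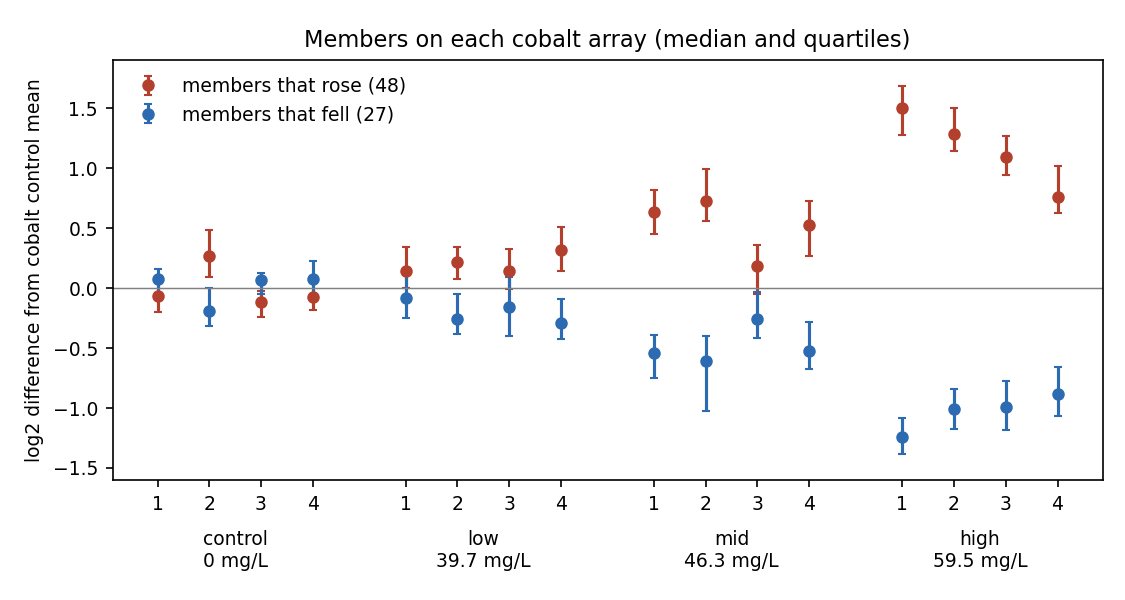
Median difference from the mean of the 4 cobalt controls (log2) over the 48 risers and the 27 fallers, one point per cobalt array, by concentration. The high arrays run from 0.76 to 1.5 in the risers and from -1.25 to -0.88 in the fallers, and control replicate 2 lies with the low arrays at 0.27 and -0.19.

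Leaving out control replicate 2 gives 69 members, 50 of them among the 75. Leaving out high replicate 4 gives 115 members, 73 of them among the 75, and leaving out high replicate 1 gives 68, 56 of them among the 75. Which transcripts meet the rule thus depends in part on single arrays, by gains as well as losses. Some transcripts lay close to the limits. At high cobalt 16 members lay between 0.90 and 0.95, against 17 non-members between 0.85 and 0.90 that met the other conditions. At low cobalt, 13 members lay between 0.30 and 0.35, against 22 non-members between 0.35 and 0.40.

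In cobalt, the risers' median difference from control was 0.23 at low (range -0.19 to 0.35), 0.49 at mid (-0.05 to 1.11) and 1.14 at high (0.90 to 2.54). The fallers' was -0.24 (-0.34 to 0.12), -0.50 (-0.84 to -0.11) and -0.97 (-1.54 to -0.91). The high and low values follow from the choice of members and carry no test. In median level, the risers stood at 7.5 in the controls, 7.73 at low, 8.08 at mid and 8.80 at high, and the fallers at 8.61, 8.35, 8.09 and 7.70. The mid concentration did not choose the members, but its difference uses the same 4 controls. Of the 9416 level-filtered transcripts, 286 were higher and 201 lower by 0.9 or more at mid cobalt, and 6429 differed by under 0.35. There, 2 risers reached 0.9, 36 lay between 0.35 and 0.9 and 10 were under 0.35, while 18 fallers lay between the limits, 9 were under 0.35 and 0 reached 0.9. As a share of the difference at high cobalt, the mid difference had a median of 42.7% in the risers (range -4.86% to 83.8%) and 49.97% in the fallers (11.8% to 77.0%), and the low difference one of 18.9% and 20.2%. These shares use the selected differences and the same 4 controls, so they are a description of the members as chosen.

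The call rule used below is limma's test, fitted per metal on 16 arrays over all 21903 transcripts, at a Benjamini-Hochberg adjusted p under 0.05. Beside each count stand 2 backgrounds, the share of all 21903 transcripts called in that direction and the share of the 9416 that passed the level filter, as every member did. At mid cobalt it called 12 of 48 risers higher (backgrounds 6.25% and 13%) and 12 of 27 fallers lower (backgrounds 5.71% and 10.8%), with the same controls as the rule used. Scaled to the added control RNA, these were 19 risers and 9 fallers, against 12.6% and 6.78% of the level-filtered transcripts. At low cobalt it called 0 risers (backgrounds 5.25% and 11%) and 0 fallers (backgrounds 4.4% and 8.31%), and at high cobalt 47 risers (backgrounds 9.51% and 18.2%) and 26 fallers (backgrounds 9.41% and 17.2%). High against low cobalt called 23 risers (backgrounds 0.425% and 0.85%) and 15 fallers (backgrounds 0.438% and 0.945%). The rule used the low and high contrasts, so nothing is read from their counts. The 2 members not called there were ENSDART00000036541 and ENSDART00000056325, singled out after their values were seen. All 4 high arrays lay beyond all 4 controls in 45 risers and 25 fallers (18.3% and 18% of the level-filtered transcripts), and beyond all 8 control and low arrays in 36 and 23 (3.33% and 4.01% of them). The limits of the rule bear on these counts too, and nothing is read from them. Replicate spread was above that of the 9416: the median SD among the 4 controls was 0.244 in the risers and 0.245 in the fallers, against 0.164. At high cobalt it was 0.326 and 0.289, against 0.183. The rule used these arrays, so the choice of members bears on these spreads, and nothing is read from them.

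ENSDART00000073621 had the largest rise among members whose high arrays lay beyond all control and low arrays. Its log2 intensity was 7.93, 10.26, 7.42 and 7.58 in the 4 controls, 7.67, 8.29, 8.93 and 9.25 at low cobalt, 10.34, 9.56, 8.86 and 8.74 at mid and 10.80, 11.07, 11.09 and 10.39 at high. The high arrays were above every control and low array, and control replicate 2 was far above the other controls and inside the range of the mid arrays. The difference was 0.24, 1.08 and 2.54 (SE 0.55) at low, mid and high, the last being 5.81-fold. Without control replicate 2 the differences are 0.89, 1.73 and 3.19, and the transcript would then not meet the low limit.

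In the other metals, ENSDART00000073621 was at 7.05, 7.23, 6.60 and 6.83 in the nickel controls and at 8.36, 7.44, 7.92 and 7.34 at high nickel, a difference of 0.84 ± 0.24 (SE, limma adjusted p = 0.0242). The high nickel arrays were all above the controls. In chromium it was at 6.91, 6.90, 6.83 and 6.79 in the controls, at 9.26, 8.48, 8.73 and 8.02 at low and at 6.99, 7.45, 8.06 and 7.46 at high. The difference was 1.76 ± 0.24 at low chromium (limma adjusted p = 8.54e-05), 0.61 at mid (adjusted p = 0.102) and 0.63 at high (adjusted p = 0.0713). Its largest chromium difference was thus at the lowest concentration.

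ENSDART00000030890 came next in size among the 36 risers of this kind. It was at 9.72, 9.84, 8.62 and 9.28 in the cobalt controls, 9.68, 9.67, 9.55 and 8.83 at low, 10.72, 10.58, 10.05 and 10.57 at mid and 11.09, 11.41, 12.27 and 11.36 at high. The low arrays overlapped the controls, the mid arrays were above both and the high arrays were above the mid ones. The difference was 0.06, 1.11 and 2.16 (SE 0.29), or 4.48-fold at high. Nickel gave 1.04, 1.27 and 1.26 at low, mid and high (SE 0.19, limma adjusted p = 0.00194, 0.000572 and 0.000406), from controls of 9.66, 9.82, 9.46 and 9.05 to high arrays of 10.34, 10.75, 10.63 and 11.27. Chromium gave 1.33, 2.00 and 2.01 (SE 0.45, limma adjusted p = 0.0634, 0.00608 and 0.00416), from controls of 9.73, 9.89, 9.50 and 8.96 to high arrays of 12.01, 11.72, 10.78 and 11.62. In both metals the high arrays lay above all controls.

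Among the fallers, ENSDART00000060728 was at 10.99, 10.38, 10.90 and 11.07 in the cobalt controls, 10.61, 10.44, 10.62 and 10.62 at low, 10.01, 9.72, 10.41 and 9.92 at mid and 9.16, 8.88, 9.39 and 9.77 at high. The high arrays were below all control and low arrays, and high replicate 4 was above mid replicate 2. The difference was -0.26, -0.82 and -1.54 (SE 0.19), 2.90-fold lower at high. Nickel gave -0.73, -0.56 and -0.61 (SE 0.10, limma adjusted p = 0.000175, 0.00198 and 0.000696), from controls of 10.95, 10.85, 11.17 and 10.91 to high arrays of 10.35, 10.33, 10.16 and 10.61. Chromium gave -1.52, -1.61 and -1.38 (SE 0.20, limma adjusted p = 7.31e-05, 4.08e-05 and 0.000113), from controls of 11.12, 10.60, 11.35 and 11.10 to high arrays of 9.53, 10.31, 9.63 and 9.17. In both metals every exposed array lay below all 4 controls.

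ENSDART00000097753 was at 11.65, 11.04, 11.47 and 11.83 in the cobalt controls, 11.23, 11.12, 11.26 and 11.23 at low, 10.69, 10.31, 11.24 and 10.50 at mid and 10.02, 9.79, 9.99 and 10.49 at high, with differences of -0.29, -0.81 and -1.43 (SE 0.20). Again the high arrays lay below all control and low arrays. Nickel gave -0.70, -0.61 and -0.67 (SE 0.13, limma adjusted p = 0.00145, 0.00515 and 0.00172) and chromium -1.55, -1.65 and -1.42 (SE 0.19, limma adjusted p = 4.63e-05, 2.33e-05 and 6.45e-05). Its values and those of ENSDART00000060728 correlated at 0.982 over the 48 arrays, the 1 pair of 2775 member pairs at 0.98 or more, so they may not be separate measurements. Without control replicate 2 the low differences of the 2 transcripts are -0.44 and -0.41, past the low limit.

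**Figure D2:**
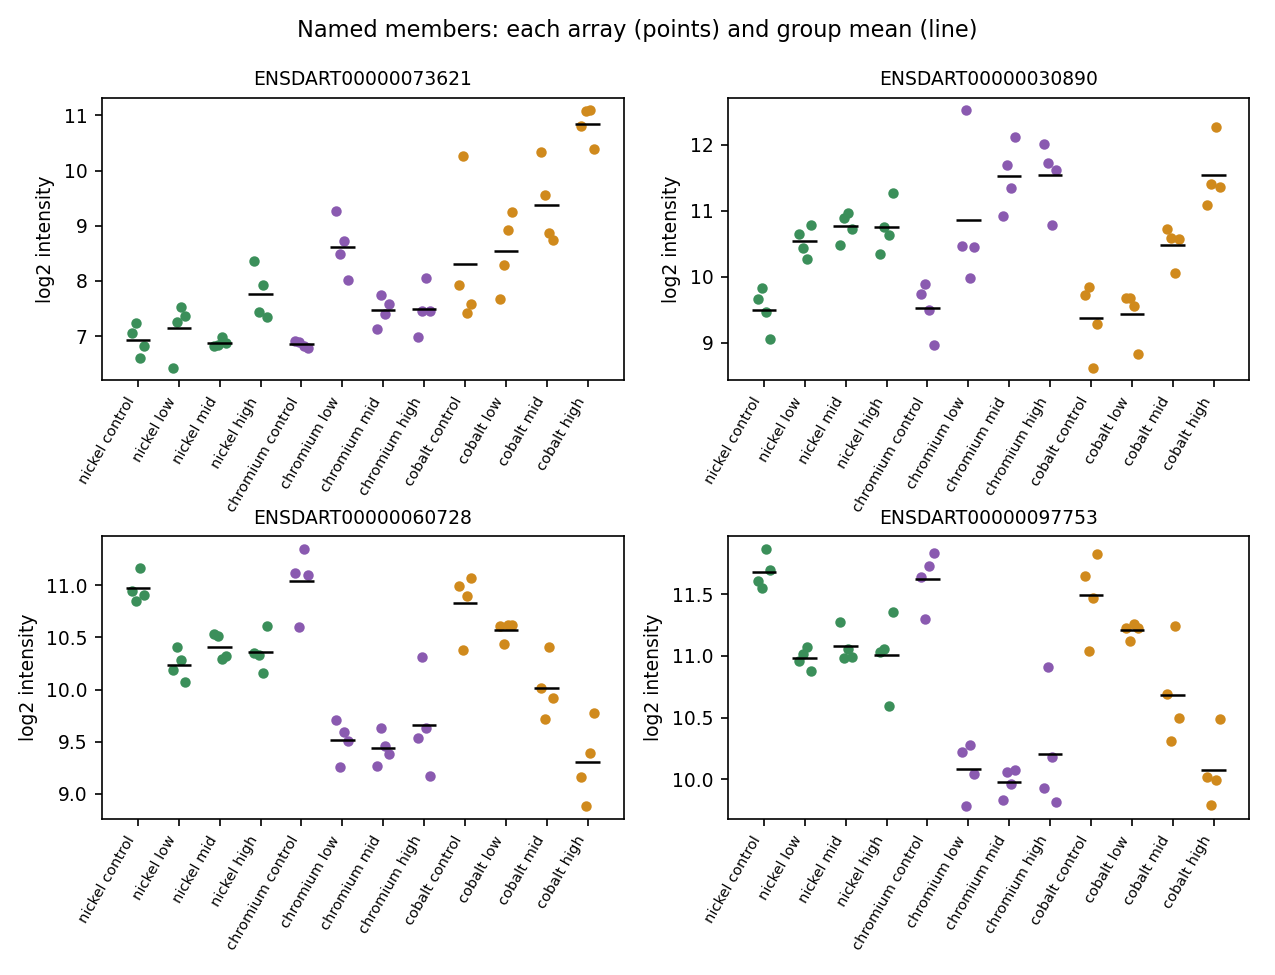
Log2 intensity of the 4 transcripts in each of the 48 arrays, by metal and concentration, one point per array. ENSDART00000073621 and ENSDART00000030890 reach 10.39 to 11.09 and 11.09 to 12.27 at high cobalt, and the fallers ENSDART00000060728 and ENSDART00000097753 go down to 8.88 and 9.79 there.

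Chromium entered the choice of members through the 5 it removed and through the level filter, which 1 member, the riser ENSDART00000008351, passed only by its chromium means. Most members were called in chromium in their cobalt direction, that riser among them in all 3 groups. At low chromium 30 of 48 risers were called higher (backgrounds 8.3% and 17%) and 1 lower. At mid chromium 32 were called higher (backgrounds 9% and 17.5%) and 0 lower, and at high chromium 34 (backgrounds 12.2% and 23%) and 0 lower. Of the 27 fallers, 16 were called lower at low chromium (backgrounds 7.03% and 12.6%), 16 at mid (backgrounds 7.21% and 12.4%) and 22 at high (backgrounds 9.83% and 17.3%), and 0 were called higher in any of the 3 groups. Every one of these shares was above its background. Another comparison is with the other 391 and 346 transcripts that rose or fell past 0.9 at high cobalt, the 5 dropped for chromium included. The risers' 62.5%, 66.7% and 70.8% at low, mid and high chromium were below their 68.3%, 76.5% and 84.1%. The fallers' 59.3%, 59.3% and 81.5% were above their 49.1%, 50.9% and 65%. The risers' median difference was 0.62, 0.78 and 0.80, and the fallers' -0.66, -0.49 and -0.84, while the median over all transcripts lay near 0. Risers called at high chromium ranged from 0.29 to 2.02 with a median of 1.2, and fallers called there from -0.40 to -1.78 with a median of -1.05. The exclusion removed 4 transcripts that fell and 1 that rose at high cobalt, each lower in all 3 chromium groups. The counts of both sets are thus of those left. The 1 that rose, ENSDART00000008752, differed by -2.95, -2.39 and -2.45 at low, mid and high chromium. The exclusion therefore bears on the 0 risers called lower at mid and high chromium.

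The size of the change at high chromium reached 0.9 in the cobalt direction in 22 risers and 12 fallers. The riser ENSDART00000008351, which passed the level filter only by its chromium means, is among the 22, so its place there is not independent of the choice. Of the 9416 level-filtered transcripts, 337 were higher and 597 lower there by 0.9 or more. At low chromium 14 risers and 12 fallers reached it, against 148 higher and 517 lower of the 9416. In 18 risers and 9 fallers the high chromium difference was larger in size than the high cobalt one, and in 5 and 7 the low chromium one was. ENSDART00000008351 is among the 18. The high cobalt difference was selected by the rule, and no share over other transcripts was taken. These counts thus describe the members as chosen and do not show a trait particular to them. The metals differed in concentration, with low chromium at 56.5 mg/L and high cobalt at 59.5 mg/L, and in their controls, so no order between them is drawn. High against low chromium called 3 members, with backgrounds of 0.228% and 0.457% higher and of 0.279% and 0.616% lower. They were singled out after their values were seen. ENSDART00000007781, a faller, was lower at high by 0.55 ± 0.08 (SE, limma adjusted p = 0.0159), ENSDART00000098439, a riser, was higher by 0.81 ± 0.15 (limma adjusted p = 0.0337), and ENSDART00000105640, a riser, was lower at high by 0.86 ± 0.17 (limma adjusted p = 0.0375). This count ranged from 0 to 14 when single arrays were left out, so it does not show how many members differ between the concentrations.

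**Figure D3:**
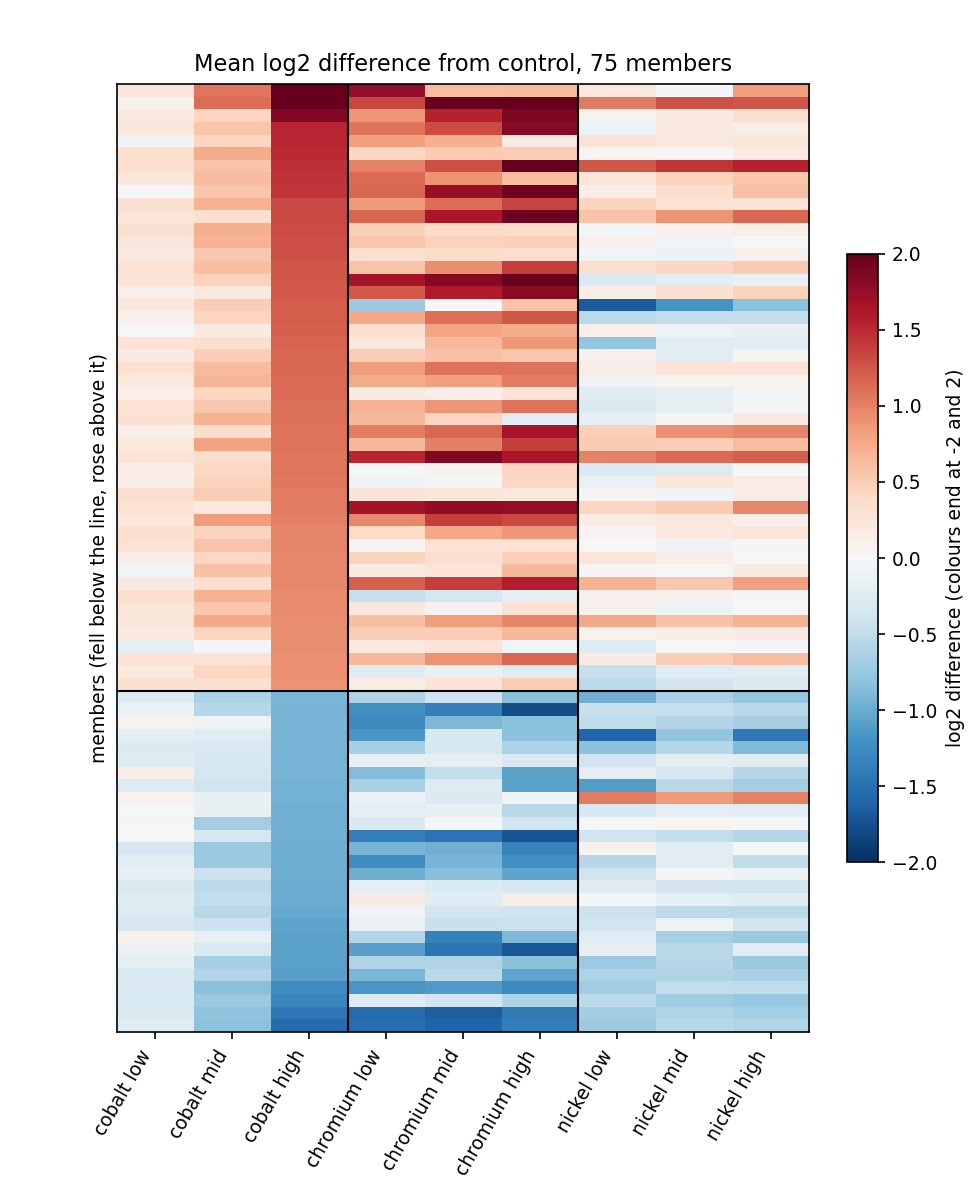
Difference from the metal's own controls (log2) of the 75 members, one row per transcript, in the 9 exposed groups, ordered by the difference at high cobalt, with risers above the line and fallers below it. Colours run from blue for lower to red for higher. The cobalt columns deepen from low to high, and the chromium columns are already coloured at low, with median differences of 0.62 in the risers and -0.66 in the fallers.

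In nickel, fewer members were called. Of the risers, 8 were called higher at low nickel (backgrounds 7.1% and 14%), 11 at mid (backgrounds 6.09% and 12.1%) and 17 at high (backgrounds 8.09% and 15.8%), and 3, 1 and 1 were called lower. As shares of the 48 these are 16.7%, 22.9% and 35.4%, so the count at low nickel was near that of the level-filtered transcripts. Of the fallers, 11 were called lower at low nickel (backgrounds 6.51% and 12.5%), 11 at mid (backgrounds 4.99% and 9.66%) and 14 at high (backgrounds 6.82% and 13.1%), or 40.7%, 40.7% and 51.9% of the 27, and 1 was called higher in each group. The risers' median was 0.08, 0.11 and 0.15 and the fallers' -0.42, -0.49 and -0.56. Of the other 391 transcripts that rose past 0.9 at high cobalt without meeting the rule, 80.6% were called higher at high nickel and 84.1% at high chromium. Of the other 346 that fell, 57.2% and 65% were called lower. Those transcripts were not held to the low limit in cobalt and include the 5 dropped for chromium. High against low nickel called 0 members and 0% of all transcripts, while at an unadjusted p under 0.05 by limma 13 risers and 1 faller were higher, against 4.27% of all and 6.86% of the level-filtered transcripts, and 1 riser and 0 fallers were lower, against 3.41% and 4.82%.

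The nickel calls depended on the scaling, among the members and among all transcripts. With the added control RNA as the scale, the fallers called lower at low, mid and high nickel were 8, 2 and 6 in place of 11, 11 and 14, against 5.72%, 2.03% and 3.1% of the level-filtered transcripts. The risers called higher were 7, 16 and 18, against 11.1%, 19.2% and 23%. In chromium 17, 12 and 17 fallers were called lower, against 8.15%, 7.82% and 8.88%, and 27, 31 and 36 risers higher, against 7.87%, 8.88% and 18.9%. The set medians moved by the same amount as all transcripts, and the fallers' became -0.37, -0.29 and -0.35 in nickel and -0.61, -0.42 and -0.69 in chromium. The share of higher calls among all called transcripts moved from 55% to 91.7% at mid nickel, from 54.2% to 90.1% at high nickel and from 50.3% to 91% at high cobalt.

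**Figure D4:**
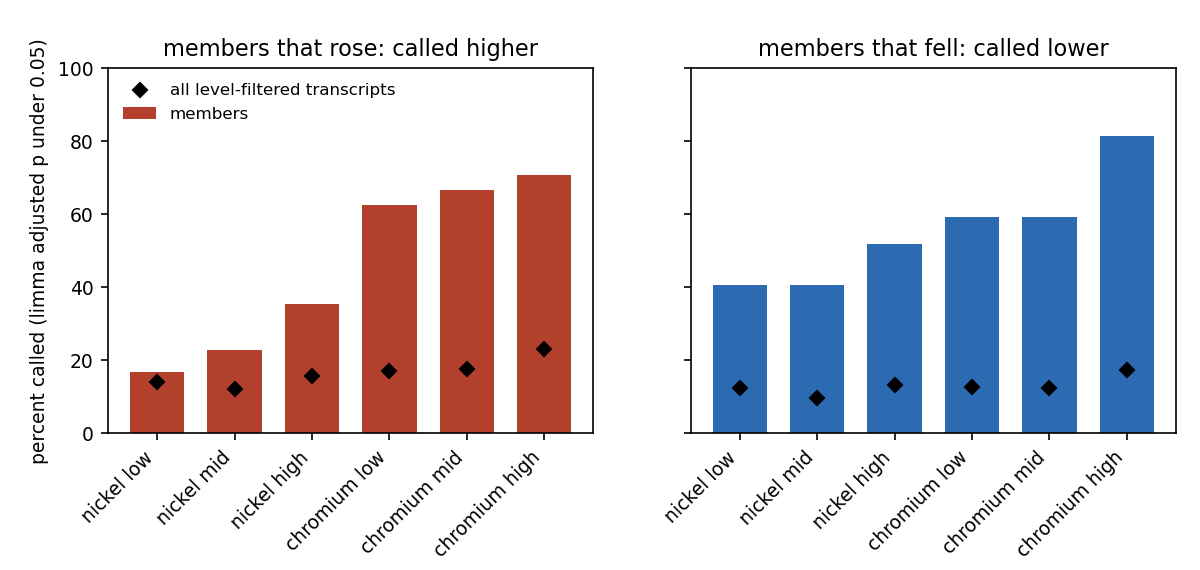
Bars give the percent of the 48 risers called higher and of the 27 fallers called lower by limma (adjusted p under 0.05) in each nickel and chromium group, and diamonds the percent of the 9416 level-filtered transcripts called in that direction. The risers run from 16.7% at low nickel to 70.8% at high chromium and the fallers from 40.7% to 81.5%, against 12.1% to 23% and 9.66% to 17.3%.

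The nickel and chromium differences were also tested against each other in a fit of all 48 arrays. The effect at high chromium was above that at high nickel in 15 risers (backgrounds 1.29% and 2.47%) and below it in 0, and it was below in 6 fallers (backgrounds 2.9% and 6%) and above in 0. At the low concentrations it was above in 7 risers (backgrounds 1.05% and 2.17%) and below in 4 fallers (backgrounds 2.63% and 5.44%). With the shared control pool as a random block (consensus correlation 0.46), 17 risers were above (backgrounds 2.58% and 4.85%) and 10 fallers below (backgrounds 3.88% and 7.64%) at high. At low, 13 risers were above (backgrounds 2.44% and 4.67%), 1 riser was below and 8 fallers were below (backgrounds 3.73% and 7.37%). The median chromium minus nickel difference was 0.52 in the risers and -0.34 in the fallers at high, and 0.48 and -0.30 at low. The metals' concentrations differ, so these are differences between the groups as exposed. The exclusion by chromium bears on these counts, which are of the members left, while the backgrounds keep the transcripts it removed. The riser it removed, ENSDART00000008752, was at -2.45 at high chromium and -0.61 at high nickel. The 4 fallers it removed were also lower in chromium than in nickel at low and at high.

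A few members went against their cobalt direction in another metal and are named here after their values were seen. ENSDART00000011362 rose in cobalt and was called lower in all nickel groups. It stood at 11.57, 11.50, 11.51 and 11.64 in the nickel controls, at 11.22, 11.13, 10.71 and 11.02 at low nickel and at 11.12, 10.85, 11.27 and 11.06 at high. All these exposed arrays lay below all 4 nickel controls. The differences were -0.54, -0.48 and -0.48 (SE 0.11, limma adjusted p = 0.00359, 0.00942 and 0.00693). In chromium it rose by 0.76, 1.11 and 1.24 (SE 0.16), from 11.82, 11.75, 11.50 and 11.75 to 13.44, 12.78, 12.45 and 13.12 at high, and the chromium minus nickel difference at high was 1.72 ± 0.27 (SE, limma adjusted p = 2.08e-05).

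ENSDART00000056325 fell in cobalt, at 9.77, 9.13, 9.29 and 9.97 in its controls and 8.65, 7.82, 9.01 and 8.87 at high (difference -0.95, limma adjusted p = 0.0501). In nickel it was at 8.84, 8.56, 8.76 and 8.88 in the controls and at 9.76, 9.87, 9.79 and 9.80 at low, and the differences were 1.05, 0.85 and 0.99 (SE 0.12, limma adjusted p = 3.33e-05, 0.000274 and 4.79e-05). Its cobalt controls read above its nickel controls and close to its exposed nickel arrays. The added control RNA differed between these array sets, at 8.69 in the cobalt and 10.94 in the nickel controls. Whether the opposite signs start from different RNA levels was not tested. Chromium differences were -0.12, -0.28 and -0.07, none called. ENSDART00000003444 and ENSDART00000100170, both risers, were lower at low nickel, by 0.77 and 0.52 (limma adjusted p = 0.00212 and 0.00892). ENSDART00000043333, a riser, was lower at low chromium by 0.46 (limma adjusted p = 0.0352), and its difference at high chromium was -0.16, which was not called.

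The 2 members with a cobalt array at or below log2 5 were ENSDART00000066972 and ENSDART00000008351, and 0 members had a whole cobalt group there. Both probes passed 0.9 on their own in 37 of 48 risers and 12 of 27 fallers, and both probes had the same sign in each member. The gap between the probes' differences had a median of 0.16 in the risers and 0.20 in the fallers, and reached 1.74 and 1.19. In 1 riser, ENSDART00000036541, singled out after its values were seen, the rise came from 1 array and 1 probe. It was at 7.93, 7.67, 11.98 and 8.02 at high cobalt, against 8.14, 7.54, 8.11 and 8.10 in the controls, and its probes differed from control by 0.06 and 1.80. Without high replicate 3 its difference is -0.10, so it would not be a member.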

How the data were processed

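The submitters' labels describe pooled total RNA of whole fish, labelled with Cy3 by a one-colour Agilent kit. The authors deposited normalized intensity values, read here as log2 from their range and near-equal array medians, 1 column for each of 48 arrays and 43714 probes. The sources used here name no scanner software, normalization or genome build (not given in the sources). Arrays have no read depth, so their number limits the precision. Control rows (61) were left out of tests, and 0 columns of per-sample values were set aside.

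Probes were averaged per transcript, and differences were taken from each metal's 4 controls. limma 3.58.1 in R 4.3.3 (lmFit, eBayes) was fitted per metal, with no block and no fold limit, over all 21903 transcripts, with Benjamini-Hochberg adjustment and a threshold of 0.05. It was tested on simulated data. The members and lists were chosen with earlier results of these data known. Their cobalt high and low values are therefore descriptions. None of the transcript IDs matched the reference gene tables (0 matched), so the gene lists prepared for the analysis, cell type markers included, were not run. Named transcripts are the 2 risers and 2 fallers with the largest high cobalt difference among those whose high arrays lay beyond all control and low arrays. Other IDs were chosen after their values were seen. The test of chromium against nickel was added after seeing the data.

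Arrays of the same replicate number did not all deviate together: over 24 pairs per metal the correlation of their deviations ran from -0.16 to 0.22 in nickel, -0.17 to 0.25 in chromium and -0.13 to 0.28 in cobalt, and was over 0.1 in 7, 3 and 7 pairs, so the numbers were not used as pairs. Alternatives were other scalings, level limits, fold limits, the brightest probe, fits with other weights, arrays or blocks, and leaving out each array.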

Additional observations from a re-analysis of the deposited data

Results flagged for a closer look

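Of the 72 groups of 4 arrays examined for an array far from the others, 6 had one. About 1 in 20 independent groups would be flagged by chance. The groups here share pools and transcripts, and the cobalt control, low and high arrays chose the members. The count is thus a description and is not set against that share. ENSDART00000030890 was at 8.83 in low cobalt replicate 4, against 9.55 to 9.68 in the others. ENSDART00000060728 was at 10.44 in low cobalt replicate 2, against 10.61 to 10.62. The risers' median was 0.10 in nickel control replicate 1 and 0.11 in chromium control replicate 1, which are the same pool, and 0.27 in cobalt control replicate 2. The fallers' median in that cobalt control was -0.19. Chromium and nickel effects differed by test at high in 15 risers (backgrounds 1.29% and 2.47%) and 6 fallers (backgrounds 2.9% and 6%). At low they differed in 7 risers (backgrounds 1.05% and 2.17%) and 4 fallers (backgrounds 2.63% and 5.44%). Each was called by limma's adjusted p for the difference, and the exclusion by chromium bears on these counts.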

How the results depend on the processing

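Of 12 alternative rules for the members, 9 kept their number within 1.5 times of 75, which does not mean that they kept the same members. Scaling to the added control RNA counts among the 9. It gave 110 members with the level filter left on the deposited scale, and only 39 of the 75 were among them. The number was 120 with a high limit of 0.8, 45 with a limit of 1 and 120 on the brightest probe, of which 55 are among the 75, and it ranged from 68 to 115 with single arrays left out. The 3 members called between high and low chromium became 12 with added control RNA as the scale, 6 without the dimmest 25% of transcripts, 7 with a trended robust fit and 6 with all 48 arrays, and ranged from 0 to 14 with single arrays left out. The 23, 24 and 33 members called at low, mid and high nickel stayed between 18 and 35 over 8 alternatives each. The 47, 48 and 56 in chromium stayed between 42 and 57 over 8 alternatives each. With single arrays left out, the chromium counts ran from 37 to 46 at low, 43 to 49 at mid and 51 to 57 at high. The nickel counts then ran from 20 to 26, 19 to 25 and 27 to 32. Such totals add risers and fallers and both directions, so opposite movements can cancel. At mid nickel, scaling to the added control RNA took fallers called lower from 11 to 2 and risers called higher from 11 to 16. Of all 21903 transcripts, 2981, 2425 and 3265 were called in nickel and 3357, 3552 and 4823 in chromium. With the replicate number as a block, 26, 24 and 33 members were called in nickel and 43, 45 and 56 in chromium. That fit called 1 member between high and low chromium and 0 between high and low nickel. Of all transcripts it called 3063, 2492 and 3360 at low, mid and high nickel. For chromium, and for its high against low contrast, such counts under these other settings are not given here. Changes in its member counts are thus not read as particular to the members. In nickel, chromium and cobalt, 7, 4 and 8 of 16 arrays had their highest mean correlation with the arrays of their own number in the metal's other groups. Whether these counts reflect pairing was not tested, and no pairing is taken from the design. The cobalt calls were refitted only on the scale of the added control RNA. How they depend on a block or on single arrays was not tested. With members chosen without cobalt control replicate 2, 28.2% of risers and 60.0% of fallers were called at high nickel. At high chromium 74.4% and 73.3% were, and the 75 members gave 35.4%, 51.9%, 70.8% and 81.5%. All shares of these sets count calls in the cobalt direction. Their backgrounds at high nickel are 8.09% and 15.8% for risers and 6.82% and 13.1% for fallers. At high chromium they are 12.2% and 23% for risers and 9.83% and 17.3% for fallers. With members chosen after scaling to the added control RNA, 87.5% of the 8 fallers were called at high nickel. For every such set the calls came from the fit of probe averages on the deposited scale. They do not show how the calls themselves depend on the scaling or on the probe. Over the 4 other ways of choosing members, the risers' share ran from 28.2% to 34.3% at high nickel and from 63.5% to 74.4% at high chromium, and the fallers' from 23 of 46 to 87.5% and from 73.3% to 87.5%. The number of arrays and the signal over background limit the precision.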

Other observations

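ENSDART00000054788, a riser named after its values were seen, differed between the control pools. It was at 9.67, 6.56, 9.34 and 6.42 in the 4 nickel controls and at 9.42, 6.38, 9.21 and 6.44 in the chromium controls, which hold the same pools in the same order. In the cobalt controls it was at 8.58, 9.53, 8.77 and 7.69, and at high cobalt at 10.27, 10.29, 9.90 and 8.99. The gap between pools thus repeated on separate arrays. Its difference at low nickel was -1.66 ± 0.83 (SE, limma adjusted p = 0.245), larger in size than that of any riser called lower there, and was not called. Over the 9872 transcripts used for the check, the deviations of a control pool on its nickel array and on its chromium array correlated at 0.66, 0.59, 0.63 and 0.73 for pools 1 to 4, across transcripts that are not independent replicates.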
